A study of Caenorhabditis elegans with 4 samples.

Results

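Actin is the protein that polymerizes into the thin filaments of muscle, the cell cortex and the core of microvilli. In Caenorhabditis elegans, 5 genes, act-1 to act-5, encode it. The genes act-1, act-2 and act-3 lie close together on chromosome V and act-4 lies on the X chromosome, and these genes encode near-identical proteins used in muscle and in other cells. The gene act-5, on chromosome III, encodes the more divergent actin of intestinal microvilli. The family was chosen by gene name after the measured difference of act-1 between genotypes was known. The actin values are thus given as a description, and nothing is read from their part in the test of all genes.

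Of the 5 genes, 3 had a matched accession in the table of 52491 RefSeq accessions, which gave 41614 genes in all. The current RefSeq accessions of act-2 and act-3 were not among those matched, so neither gene is given a value here. Whether any of the unmatched accessions in the table is a former accession of act-2 or act-3 was not determined. Of the 3 matched genes, 2 were above 0 in at least 1 library. Coordinates are those of assembly WBcel235, the same assembly as the submitters' build ce11. The gene act-1 (T04C12.6) spans V:11081052-11082415, act-2 (T04C12.5) spans V:11076777-11078154 and act-3 (T04C12.4) spans V:11071690-11073264. The gene act-4 (M03F4.2) spans X:4960621-4964413 and act-5 (T25C8.2) spans III:13604412-13606066.

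RNA was measured in whole larvae at the first larval stage, from 2 wild-type libraries and 2 libraries of dve-1(uf171) mutants, each from about 1200 larvae grown at 25 degrees Celsius on Escherichia coli OP50. DVE-1 is a homeodomain transcription regulator that acts when mitochondrial proteins misfold. The values are FPKM, fragment numbers scaled by transcript length and by library size, so levels of different genes are compared per length. The FPKM of a library summed to 2.39e+06 and 2.35e+06 for wild type and to 2.25e+06 and 2.05e+06 for mutants. The transcript of dve-1 reached 15.1 and 19.5 FPKM in wild type, against 23.4 and 25.5 FPKM in mutants, and whether the allele should change its RNA level is not stated in the labels. No label says that the replicates came from separate cultures, so the spread between them may be technical.

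Nearly all of the act-1 signal was in the wild-type libraries. It stood at 1982 and 2126 FPKM in wild type, against 0.131 and 0.177 FPKM in mutants. In wild type act-1 was thus among the most abundant transcripts, at rank 146 of the 17998 genes above 0 in the first library and at rank 126 of 17728 in the second. In the mutant libraries it ranked 17048 of 17827 and 16131 of 17224. The difference on the log2(FPKM + 1) scale was -10.80 (mutant over wild type), against a spread of 0.08 between replicates (the SDs of both genotypes combined). Because the mutant values lie under the added 1, this scale draws them together, at 0.178 and 0.235. The spread thus understates their relative difference.

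The mutant values of act-1 lay near the smallest that the table holds for a transcript of its size. The spliced act-1 transcript is 1264 nt long. Among 362 other genes with 1 accession and 1 annotated transcript within 2% of that length, the smallest value above 0 was 0.0418 FPKM in the first mutant library and 0.0431 FPKM in the second. The act-1 values were 3.14 and 4.11 times as large. Of the 324 and 329 of these transcripts above 0 in the mutant libraries, 16 and 29 stood below act-1. In the wild-type libraries 336 of 338 and 328 of 330 stood below it.

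**Figure D1:**
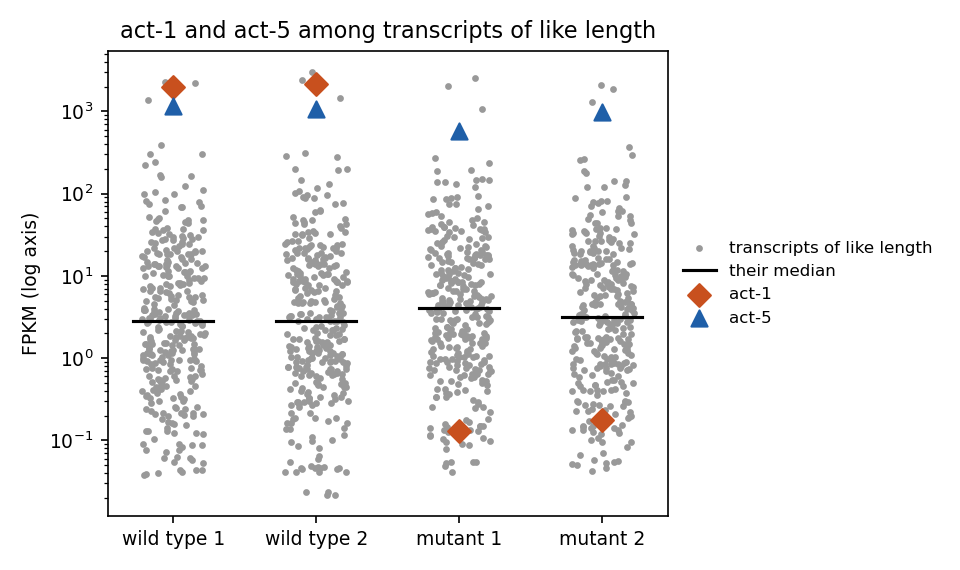
FPKM on a log axis in each library for act-1 (diamonds), act-5 (triangles) and other transcripts within 2% of the act-1 length that were above 0 (grey points, with their median as a line). The act-1 diamond lies above all but 2 grey points in both wild-type libraries and near the lower edge in both mutant libraries, while 3 grey points lie above act-5 in every library.

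One accession with no matched gene carried the wild-type values of act-1. It stood at 1982.4 and 2125.98 FPKM in wild type, against 1982.35 and 2125.84 for act-1, a difference of at most 0.00659%. It was the only other accession whose wild-type values lay within 0.1% of those of act-1 in both libraries. In the mutant it was listed at 0.0874 and 0 FPKM, or 0.667 and 0 times the act-1 values. The row was found by its values, it carries no gene name here, and which gene it belongs to was not determined.

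The genes whose 4 values lay nearest to those of act-1 had the same shape, which follows largely from that choice. Likeness was the Euclidean distance in log2(FPKM + 1) over the 4 libraries, and 12597 protein-coding genes outside the actin family were compared. The nearest was the cuticle collagen gene col-3 at a distance of 0.25, with 1750 and 1904 FPKM in wild type, against 0.108 and 0.226 FPKM in mutants. The next, at 0.27, was the collagen gene col-117, whose wild-type values differed from those of col-3 by at most 0.0263% and whose mutant values were 0.0721 and 0.263 FPKM. The third, ZC262.5, lay farther away at 1.54 and held 981 and 973 FPKM in wild type, with 0 listed for both mutant libraries. Collagens build the cuticle and are not part of the actin filament. As with act-1, col-3 and col-117 have a near-equal partner in wild type, and no source used here says how reads that align to several copies were counted. The part of such counting in the act-1 difference was not tested, and genotype and any difference in how the libraries of each genotype were handled cannot be told apart.

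The protein-coding genes beside the chromosome V cluster did not share the act-1 pattern. T04C12.8, whose end lies 2331 nt below act-3, stood at 56.1 and 27.5 FPKM in wild type, against 52.8 and 39.4 FPKM in mutants. Y42A5A.1, whose start lies 5532 nt above act-1, reached 5.03 and 7.51 FPKM in wild type, against 7.73 in each mutant library. Both genes were above 0 in all 4 libraries, T04C12.8 with overlapping genotypes.

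The gene act-4 was listed at 0 in all 4 libraries, on the 1 of its 2 RefSeq accessions that was matched. Because act-4 is known as a muscle actin and the table lists other genes at 0 for which no estimate may have been made, that 0 is given only as listed. The other accession was not analysed here. Its neighbour M03F4.6, which overlaps its last 1 nt, stood at 3.28 and 1.98 FPKM in wild type, against 2.44 and 3.85 FPKM in mutants, with overlapping genotypes. Its neighbour on the other side, M03F4.4, has no matched accession.

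**Figure D2:**
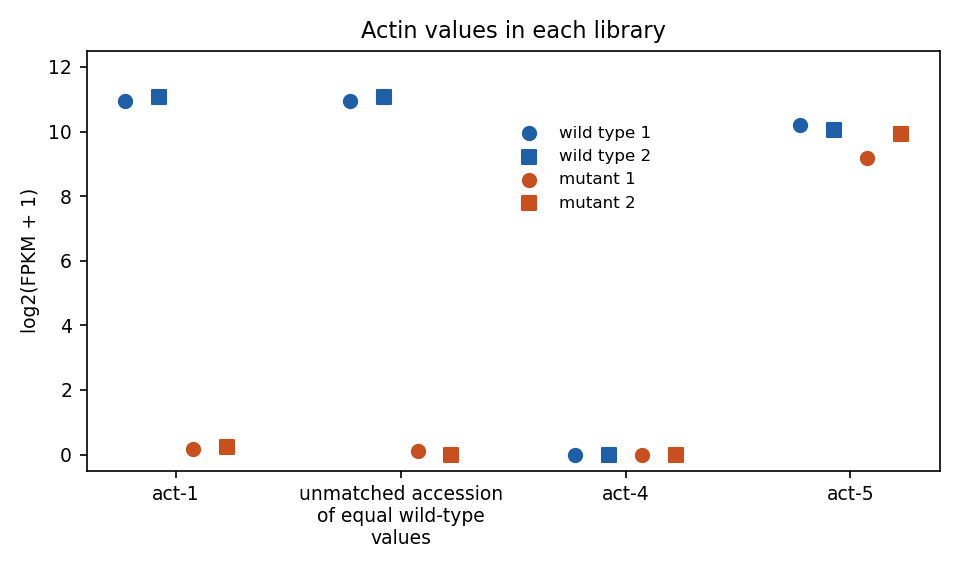
Level on the log2(FPKM + 1) scale in each of the 2 wild-type (blue) and 2 mutant (orange) libraries, for the 3 matched actin genes and for the unmatched accession with the wild-type values of act-1. Both wild-type points of act-1 and of that accession lie near 11 and their mutant points near 0, act-4 is at 0 throughout, and the act-5 points lie between 9.2 and 10.2.

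The intestinal actin act-5 was abundant in every library and lower in both mutant libraries. It stood at 1167 and 1060 FPKM in wild type, against 573 and 978 FPKM in mutants. The genotypes did not overlap, as in 15.9% of all 15202 genes tested, which had both mutant values below both of wild type. The mutant libraries differed from each other by more than the second mutant library differed from wild type. The mean was 1114 ± 75.8 FPKM in wild type and 776 ± 286 FPKM in the mutant (SD, n = 2), or 69.6% of wild type, a log2 difference of -0.52. Without the first mutant library that difference was -0.19 and without the second it was -0.96, so a single library sets its size. Ranks were 211 and 214 in wild type, against 355 and 216 in mutants. In whole larvae, fewer intestinal cells and less act-5 RNA per cell cannot be told apart.

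Other genes of the intestinal apical surface were also lowest in the first mutant library. The list of 7 brush border and terminal web genes holds intestinal intermediate filament genes and their organizer ifo-1. All 7 had their lowest value in that library, at 58.6% to 93.7% of their wild-type means. The share of all genes lowest in that library was not computed. For ifp-1 the margin was small, at 38.9 FPKM there against 39.1 FPKM in the first wild-type library. In the second mutant library the 7 genes stood at 92.04% to 125.9%. The corresponding values of act-5 were 51.5% and 87.8%, below all 7 in both libraries. Among the most abundant of the list, the intermediate filament gene ifb-2 stood at 233 and 212 FPKM in wild type, against 136 and 205 FPKM in mutants, and ifc-2 at 103.9 and 105.2 FPKM, against 74.8 and 110.2 FPKM. Neither passed the threshold (limma adjusted p = 0.607 and 0.715).

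Most intestinal markers, though not all, were lower in the first mutant library, as act-5 was, and their part in the act-5 difference was not tested. The summed level of 5 markers was 4655 and 4933 FPKM in wild type, against 3035 and 3804 FPKM in mutants, without overlap, and all 5 were above 0 in every library. Most of this sum was asp-1. Of the 5 markers, 3 had both mutant values below both wild-type values, as did 15.9% of all genes tested. The aspartic protease gene asp-1 reached 3851 and 4141 FPKM in wild type, against 2598 and 3306 FPKM in mutants, and ifb-2 is given above. The metallothionein gene mtl-2, at 553 and 561 FPKM, against 284 and 271 FPKM, was the 1 that passed (limma adjusted p = 0.0458), where 1.66% of all genes tested did. The transcription factor gene elt-2, which specifies the intestine, stood at 10.4 FPKM in each wild-type library, against 7.92 and 11.2 FPKM in mutants, lower in the first mutant library and higher in the second. For the gut esterase gene ges-1 the values were 7.62 and 9.16 FPKM in wild type, against 8.90 and 10.3 FPKM in mutants, which overlapped, with the highest value in a mutant library. Relative to the summed intestinal markers, act-5 stood at 0.251 and 0.215 in wild type, against 0.189 and 0.257 in mutants. The genotypes overlapped (log2 difference -0.062). Relative to the summed brush border list, act-5 stood at 2.29 and 2.17 in wild type, against 1.71 and 1.93 in mutants, without overlap (log2 difference -0.30).

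**Figure D3:**
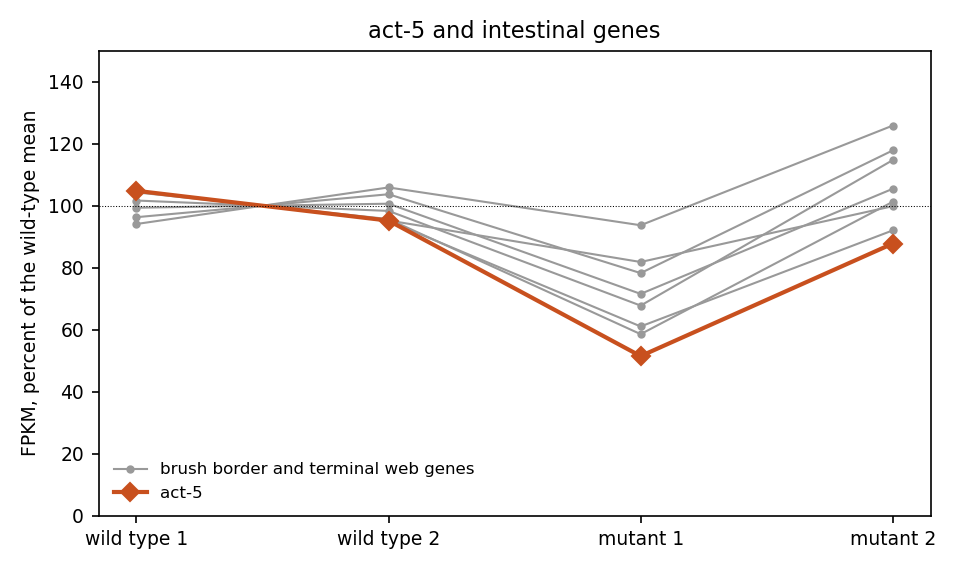
FPKM of act-5 (orange) and of 7 brush border and terminal web genes (grey) in each library, as a percent of each gene's wild-type mean, with lines joining the values of 1 gene. All 8 genes are lowest in the first mutant library, and act-5 is below the other 7 in both mutant libraries.

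The nearest genes to act-5 over the 4 libraries were K08D12.3 at a distance of 0.45, eef-1A.2 at 0.58 and ddp-1 at 0.63. K08D12.3 stood at 949 and 878 FPKM in wild type, against 561 and 859 FPKM in mutants. The elongation factor gene eef-1A.2, a member of a pair of close copies, stood at 1142 and 1576 FPKM, against 603 and 980 FPKM. The mitochondrial import gene ddp-1 stood at 926 and 914 FPKM, against 659 and 720 FPKM. Each of these genes had both mutant values below both wild-type values, which follows largely from their choice by likeness to act-5. The neighbour of act-5 at lower coordinates, T05D4.5, ends 20767 nt away and was barely detected, at 0.163 and 0.0703 FPKM in wild type, against 0.815 and 0.319 FPKM in mutants. The neighbour on the other side, shpk-1, has no matched accession.

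Summed over the matched genes, actin stood at 3150 and 3186 FPKM in wild type, against 574 and 978 FPKM in mutants. In wild type act-1 made up 62.9% and 66.7% of this sum, and in the mutant act-5 made up 99.98% of it in both libraries. The mean of the sum was 3168 ± 25.7 FPKM in wild type and 776 ± 286 FPKM in the mutant (SD, n = 2), a log2 difference of -2.03. With the unmatched accession of equal wild-type values added, the sum was 5132 and 5312 FPKM in wild type and the mutant sums stayed at 574 and 978, a log2 difference of -2.75. The sum over matched genes leaves out act-2 and act-3, and whether the added accession belongs to either was not determined, so neither sum can be read as the total actin RNA of the larvae.

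In the comparison across all genes, 1.66% of 15202 genes tested were called by limma (adjusted p under 0.05), and 1.36% were called lower. Of the 252 calls, 18.3% were higher in the mutant. These shares depend on the design of the fit. Without either mutant library most calls were higher in the mutant, and without either wild-type library most were lower. Such a fit takes its spread only from the genotype that keeps 2 libraries, so its calls are not counted here. With a replicate block limma called 0 genes, with 1166 at an unadjusted p under 0.05. Of the 2 actin genes that passed the filter of a mean of at least 1 FPKM, 1, act-1, was called and act-5 was not. The act-1 call is no test, because its difference was known when the family was chosen. Both genes had their mutant values below their wild-type values, as did 15.9% of all genes tested. The actin family was chosen on this contrast, so nothing is read from these counts.

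No gene of the lists with roles linked to actin, which include intestinal intermediate filament genes and actin-related proteins, was called as changed. The lists group 127 genes by role, of which 120 had a matched accession and 118 were tested. Limma called 0 of the 118 at an adjusted p under 0.05, against 1.66% of all genes, and 8 (6.78%) had an unadjusted p under 0.05, against 11.9% of all genes. Their median log2 fold change was 0.01, and that of all genes was 0.09. Mutant values were wholly below wild-type values in 26 of the 118 (22.0%, against 15.9% of all genes) and above them in 26 (22.0%, against 28.1%). With 2 libraries a genotype, a missed threshold does not show that levels were equal. With 1.66% of all genes called, 0 calls in lists of this size does not set them apart from other genes.

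Muscle partners of actin held high levels in all 4 libraries. The list of troponins and muscle myosins had 17 tested genes with a median log2 fold change of 0.04 and a summed level of 10972 and 12217 FPKM in wild type, against 11769 and 10177 FPKM in mutants. Of these genes, 3 had both mutant values above wild type and 4 below (17.6% and 23.5%, against 28.1% and 15.9% of all genes tested). The essential myosin light chain gene mlc-3 stood at 2126 and 2315 FPKM in wild type, against 2656 and 2059 FPKM in mutants (limma adjusted p = 0.873). The regulatory light chain gene mlc-2 stood at 2878 and 3166 FPKM, against 2724 and 2206 FPKM (limma adjusted p = 0.547). Its close relative mlc-1, named after its values were seen because it had the lowest p of all 118, stood at 1198 and 1327 FPKM in wild type, against 698 and 709 FPKM in mutants, a log2 fold change of -0.84 (SE 0.10) that did not pass (limma adjusted p = 0.0787). The summed level of 4 matched body wall muscle markers was 670 and 817 FPKM in wild type, against 727 and 723 FPKM in mutants, so the genotypes overlapped. For 4 pharyngeal muscle markers the sum was 1207 and 1531 FPKM in wild type, against 1760 and 1545 FPKM in mutants. Both mutant sums were thus above both of wild type, the second by a small margin. Of the 4 markers, 2 had both mutant values above and 0 below, against 28.1% and 15.9% of all genes tested. Of the same 4, 0 were called, against 1.66% of all genes tested.

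Among genes for proteins that bind along or crosslink the filament, none was called. Of 16 tested genes, 4 had both mutant values above and 4 below (25% each, against 28.1% and 15.9% of all genes tested). Their median log2 fold change was 0.04. The tropomyosin gene lev-11 stood at 1523 and 1088 FPKM in wild type, against 1535 and 1442 FPKM in mutants, and the calponin-like gene unc-87 at 471 and 507 FPKM, against 515 and 510.4 FPKM (limma adjusted p = 0.664 and 0.763). The 13 tested genes of spectrins and membrane linkers had a median of 0.02, with 3 above and 2 below (23.1% and 15.4%). Among them, the α-catenin gene hmp-1 reached 375 and 404 FPKM in wild type, against 522 and 299 FPKM in mutants. The ezrin-like gene erm-1, which links actin to the apical membrane, stood at 116 and 120.4 FPKM, against 85.5 and 119.3 FPKM, lowest in the first mutant library as act-5 was (limma adjusted p = 0.992 for hmp-1 and 0.641 for erm-1).

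Genes of filament assembly and turnover were not called either. The 13 tested genes of the Arp2/3 complex, which nucleates branched filaments, and of its activators had a median log2 fold change of -0.09. Of these, 5 lay below wild type in both mutant libraries and 2 above (38.5% and 15.4%, against 15.9% and 28.1% of all genes tested). The subunit gene arx-5 stood at 109 and 106 FPKM in wild type, against 72.7 and 72.3 FPKM in mutants (log2 fold change -0.56, SE 0.09, limma adjusted p = 0.156), and arx-6 at 137 and 127 FPKM, against 121 and 126 FPKM. The 6 tested formins, which nucleate and elongate unbranched filaments, had a median of -0.0046, and none lay wholly above or below wild type; fhod-1 stood at 19.2 and 20.9 FPKM, against 18.5 and 22.5 FPKM, and frl-1 at 12.6 and 14.1 FPKM, against 13.3 and 12.7 FPKM. The 17 genes of monomer binding, severing and capping had a median of 0.13, with 5 above and 2 below (29.4% and 11.8%, against 28.1% and 15.9%). The cofilin gene unc-60, which severs filaments, stood at 464 and 449 FPKM in wild type, against 543 and 457 FPKM in mutants, and the profilin gene pfn-1 at 240.2 and 229 FPKM, against 217 and 207 FPKM (limma adjusted p = 0.671 and 0.625).

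The same held for chaperonins, motors and actin-related proteins. The 14 genes of the chaperonin that folds actin and tubulin, and of its partner prefoldin, had a median of 0.02, with 5 above and 4 below. These are 35.7% and 28.6%, against 28.1% and 15.9% of all genes tested. The gene cct-1 reached 222 and 200.4 FPKM in wild type, against 230 and 251 FPKM in mutants. For pfd-1 the values were 527 and 523 FPKM, against 571 and 460 FPKM. The 11 tested non-muscle and unconventional myosin genes had a median of -0.06, with 2 above and 2 below (18.2% each). The non-muscle regulatory light chain gene mlc-4 stood at 197 FPKM in each wild-type library, against 157 and 159 FPKM in mutants, and the light chain gene mlc-5 at 234.6 and 183 FPKM, against 175 and 190.2 FPKM (limma adjusted p = 0.351 and 0.638). In the same list hum-4 had listed values of 4.89 and 8.63 FPKM in wild type, against 0 and 4.63 FPKM in mutants. Among 4 actin-related protein genes, with a median of -0.05, 2 lay above wild type in both mutant libraries and 2 below (50% each). The dynactin gene arp-1 stood at 94.05 and 91.9 FPKM, against 72.5 and 74.2 FPKM (limma adjusted p = 0.351). For arp-11 the values were 28.8 and 30.4 FPKM, against 30.5 and 31.1 FPKM (limma adjusted p = 0.843).

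**Figure D4:**
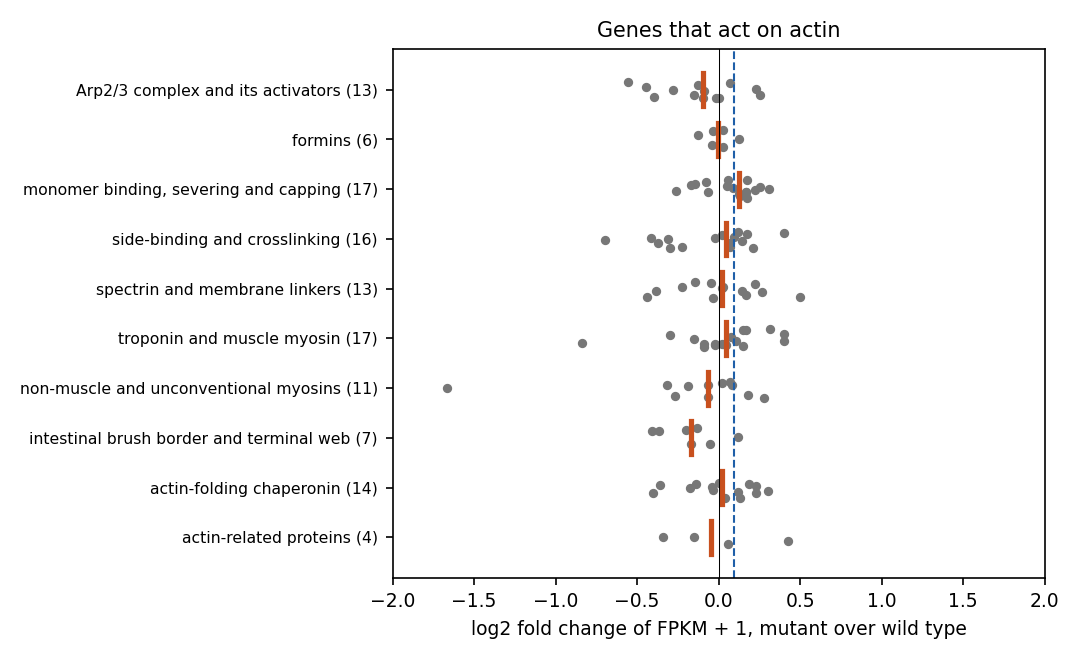
Log2 fold change of FPKM + 1, mutant over wild type, of each tested gene (grey points) in the 10 lists of actin-linked genes. The number tested is in brackets and the list median is an orange bar. The list medians lie between -0.17 and 0.13, the dashed line marks the median of all genes tested at 0.09, and the point farthest to the left is hum-4 at -1.67.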

How the data were processed

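The deposited table holds 1 FPKM value per RefSeq accession and library. The submitters' processing notes name TopHat2, Cufflinks and ce11. Versions, strand and the treatment of reads with several alignments are not given in the sources. Total counts are not part of the table, so no counting interval is given. Accessions were matched without version to RefSeq genes (47645 of 52491; the other 4846 held 20.9% to 21.7% of summed FPKM) and summed per gene. Spliced lengths were read from Ensembl gene models (WBcel235).

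All genes averaging at least 1 FPKM entered a fit of log2(FPKM + 1) on genotype in limma 3.58.1 (R 4.3.3), using the mean-variance trend. P-values were adjusted by the Benjamini-Hochberg method over every gene tested, and 0.05 was the threshold. This scale understates changes of low genes. The limma step was tested on simulated data. Each list names its members past the threshold or, where none passed, its 2 most abundant; the 3 nearest genes and the adjoining protein-coding genes of each actin gene were named as well. The actin family, the lists and the tests were chosen with earlier results of these data known. Sequence identity of the actin genes, though planned, was not analysed here, and 1 gene list is not reported here. The labels do not say whether replicate numbers pair the libraries, and the main fit used genotype only. The replicate differences of the 2 genotypes correlated at -0.056 over genes, which cannot settle whether libraries were prepared in pairs.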

Additional observations from a re-analysis of the deposited data

How the results depend on the processing

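The act-1 difference was -12.98 at a pseudocount of 0.1, which follows from its mutant values lying under 1, and -10.85 to -10.75 with 1 library left out. The act-5 difference was -0.64 and the actin sum -2.14 under median-ratio scaling, which moved the median of all genes from 0.09 to -0.01. The sum was -2.47 to -1.70 with 1 library left out, and -2.75 with the unmatched accession added, an alternative chosen after seeing the data, as were both ratios of act-5 to intestinal genes. Genes called over all genes numbered 105 at a mean of at least 5 FPKM, 391 without the trend, and 54 among genes above 0 in all 4 libraries (also chosen after seeing the data), against 252. They numbered 369 to 767 with 1 library left out: 750 and 767 without the first and second wild-type library, and 369 and 467 without the first and second mutant library, where 90.0% and 91.0% were higher in the mutant, against 18.3% with all libraries. With a replicate block limma called 0 genes, with 1166 at an unadjusted p under 0.05. Of the listed actin-linked genes, 0 were called under any setting that kept 2 libraries per genotype, with 3 to 12 at an unadjusted p under 0.05. Of 110 list medians recomputed, 100 moved by less than the spread between replicates and 10 moved beyond it. The replicate block and the fit without the trend cannot change a median, so theirs are among the 100 by construction. At a spread of 0.41 the brush border median is too, at 0.08 and -0.48 without the first and second mutant library. Under median-ratio scaling, the medians beyond the spread were -0.22 for the Arp2/3 list, 0.0037 for monomer binding and -0.10 for spectrins and for chaperonins. For actin-related proteins the median was -0.17. Each was lower by about the shift of all genes. With 1 library left out, the medians that moved beyond it ranged from -0.12 to 0.048 for formins, from 0.0025 to 0.15 for monomer binding, from -0.099 to 0.065 for side-binding genes, from -0.011 to 0.18 for spectrins and from -0.11 to 0.14 for troponins and muscle myosins. The cause of the other shifts was not tested. Few values per genotype and unknown depth limit what can be said of act-5.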
